A study of Homo sapiens with 12 samples.

Results

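The genes described here encode the initiation and elongation factors of protein synthesis, with the proteins that bind, modify or inhibit them. They were taken by name, as every row whose symbol starts with EIF or EEF followed by a digit, without a hyphen, without the eIF2 kinases and without rows described as pseudogenes. This gave 65 of the 50868 genes in the deposited table. The rule reads names and descriptions and no measured value, but earlier results of these data were known when the genes were chosen. The cells were RPMI2650, an established epithelial line from a human nasal septum carcinoma, recorded as wild type and grown at an air-liquid interface, where the upper side of the cell layer is exposed to air. The series set the transcriptomes of cells exposed to either of 2 perfluoroalkyl acids against that of unexposed cells. In the PFBA group the cells received perfluorobutanoic acid at 1 µM for 7 days, and in the PFHxA group perfluorohexanoic acid, which has the longer perfluorinated chain, at 1 µM for 7 days. The labels give no vehicle and no duration for the control group. Each group had 4 libraries, all from 1 cell line, and the labels do not say whether these came from separate cultures, so that the p-values measure the spread between these libraries, which may be technical.

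Initiation in human cells starts when eIF2 carries the initiator tRNA to the small ribosomal subunit, on which eIF3 is the large scaffold and eIF1, eIF1A and eIF5 control the choice of the start codon. The cap-binding protein eIF4E, the scaffold eIF4G and the helicase eIF4A bring the mRNA, and eIF5B then joins the large subunit. In elongation eEF1A delivers aminoacyl-tRNAs, the eEF1B subunits reload it with GTP, eEF2 moves the ribosome along the mRNA, and eEF2K switches eEF2 off by phosphorylation. Several of these mRNAs belong to the terminal oligopyrimidine class, whose translation depends on the kinase mTOR and the RNA-binding protein LARP1.

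Total counts ran from 16941599 to 21879105 per library. CPM are counts scaled to a common library size with TMM factors. The 6 epithelial markers, all over 1 CPM, summed to 2747 to 2787 CPM in controls, 2543 to 2662 with PFBA and 2790.0 to 2998 with PFHxA, and these ranges did not overlap. KRT5 averaged 1926 CPM, EPCAM 41.3 and CDH1 9.59. The sums were mostly KRT5, whose means were 1921 CPM in controls, 1812 with PFBA and 2046 with PFHxA. The means of KRT8, KRT18 and KRT19 had the same order. EPCAM had another, with 43.3 CPM in controls, 42.4 with PFBA and 38.3 with PFHxA, and CDH1 was highest with PFBA. The immune genes PTPRC and CD3E and the fibroblast gene DCN averaged under 0.03 CPM. Other members of these lists were higher, with the immune gene CD68 at 1.70 CPM and the fibroblast genes COL1A1 at 2.31 and PDGFRA at 1.86. Of the endothelial genes CDH5 averaged 8.65 CPM, PECAM1 0.564 and VWF 0.469. The immune list (3 genes, 2 of them under 1 CPM) summed to 0.929 to 2.70 CPM, the endothelial list (3 genes, 2 under 1 CPM) to 6.79 to 11.6, and the fibroblast list (4 genes, 1 under 1 CPM) to 598 to 864, mostly from VIM at 677. Mitochondrial genes took 9.15% to 11.9% of the counts in controls, 11.1% to 11.7% with PFBA and 11.7% to 12.9% with PFHxA. All PFHxA libraries were above all PFBA libraries, and PFHxA b, c and d above every control. The part of the differences in the epithelial sum and the mitochondrial share in the results below was not tested. Control d had the smallest total and the lowest mitochondrial share of the 12 libraries. The letters only name libraries within a group.

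Of the 65 genes, 62 passed the filter on low counts. EIF4E1B, EIF4EBP3 and EIF1AY did not and were not tested. RefSeq start sites (GRCh38.p14) matched 51 of the 65 symbols. The sequences below are the 45 bases before and the 15 bases from an annotated start, printed because the first bases define the oligopyrimidine class and because a near-identical pair bears on the counts. Capitals mark the first 5 transcribed bases and, where present, TATAA between 40 and 20 bases before the start. The first 5 genes have both a pyrimidine start (C followed by 4 bases that are each C or T, on the gene's strand) and TATAA.
EEF1A1 (chr6:73521018-73521077, minus strand): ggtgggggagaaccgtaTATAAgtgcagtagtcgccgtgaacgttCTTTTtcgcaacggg
EEF1B2, the second of its listed starts (chr2:206159850-206159909, plus strand): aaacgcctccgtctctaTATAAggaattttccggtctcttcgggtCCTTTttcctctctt
EEF2 (chr19:3985449-3985508, minus strand): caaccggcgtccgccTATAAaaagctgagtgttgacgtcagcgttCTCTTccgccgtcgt
EIF4A2 (chr3:186783532-186783591, plus strand): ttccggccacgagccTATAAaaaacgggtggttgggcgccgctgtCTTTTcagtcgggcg
EIF4B (chr12:53006411-53006470, plus strand): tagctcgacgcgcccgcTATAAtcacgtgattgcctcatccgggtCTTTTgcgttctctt
EIF3M (chr11:32583786-32583845, plus strand): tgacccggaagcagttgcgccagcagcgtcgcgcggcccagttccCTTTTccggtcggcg
EIF5B (chr2:99337344-99337403, plus strand): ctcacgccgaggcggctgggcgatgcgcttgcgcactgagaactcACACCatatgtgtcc
EEF1E1 (chr6:8102534-8102593, minus strand): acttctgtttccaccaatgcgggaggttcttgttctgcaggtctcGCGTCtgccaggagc
EIF2S3 (chrX:24054911-24054970, plus strand): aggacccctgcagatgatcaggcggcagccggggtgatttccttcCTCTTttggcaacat
EIF2S3B, the first of its listed starts (chr12:10505845-10505904, plus strand): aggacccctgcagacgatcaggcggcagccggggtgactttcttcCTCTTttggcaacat
EIF3M, EIF2S3 and EIF2S3B (the first of its 2 listed starts, the second having none) have the pyrimidine start without TATAA, EIF5B and EEF1E1 have neither, and the EIF2S3 and EIF2S3B windows are identical at 57 of 60 bases. Over all 51 matched genes, 13 (25.5%) had a pyrimidine start, against 5.14% of the 27305 genes in the promoter table and 49 of 70 genes named as cytosolic ribosomal proteins (70%). TATAA at that distance was found in 7 of the 51 (13.7%) and in 4.92% of all genes. These matches describe letters in a window and not sites in use.

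Levels were compared between genes as CPM per kb of the longest annotated transcript. Counted on each gene's own row, EEF2, the translocase, stood highest at 2393 ± 122 CPM per kb (SD, n = 12), followed by EEF1A1 at 664 ± 57.3, EEF1G at 335 ± 16.0 and EEF1B2 at 322 ± 39.0. The last 2 differed by less than their SD, which here holds the differences between the 3 groups as well. In controls EEF1B2 was at 362 ± 39.1 and EEF1G at 340 ± 17.3 (SD, n = 4). With PFBA they were at 307 ± 24.4 and 325 ± 16.2, and with PFHxA at 296 ± 10.2 and 340 ± 13.0. Among initiation genes EIF3E led at 272 ± 50.7 and EIF4B reached 210.1 ± 46.5, which differed from EIF4H at 199 ± 5.22 by less than the SD of EIF4B. By group EIF3E was at 316 ± 44.0 in controls and 217 ± 14.3 with PFHxA. EIF4B and EIF4H were at 215 and 197 in controls, and at 173 and 202 with PFHxA. The order of the means over 12 libraries turns when the rows of each gene's pseudogenes, described further on, are added, as chosen after seeing the data. EEF1A1 then stood at 3443 ± 249 CPM per kb, above EEF2, which has no such row. EEF1B2 at 373 ± 45.7 then lay above EEF1G at 338 ± 15.9 and EIF4B at 297 ± 48.2 above EIF3E at 273 ± 50.7, both by less than the larger SD of the pair. On its own row the cap-binding gene EIF4E was at 3.75 ± 0.502 and the eIF2B subunit genes between 8.07 (EIF2B5) and 19.4 (EIF2B1), below EIF2S1 at 24.8 ± 1.18 and EIF2S3 at 121 ± 5.54. The value of EIF4E rests on a longest transcript of 11523 bases and rose to 7.30 ± 0.883 with its pseudogene rows added. Without division by length EIF4E averaged 43.2 CPM, between EIF2B5 at 35.6 and EIF2B1 at 48.0. In pairs of paralogs the tissue-restricted form was low, with EEF1A2 at 3.68 ± 0.187 and EIF5A2 at 1.83 ± 0.177 against 148 ± 8.13 for EIF5A. Within groups the median coefficient of variation was 6.39%, against 10.2% over all 16554 tested genes, which were not matched for level. It was over 20% for 4 of the 62 genes, among them EIF4E3 (33.3%) at 1.03 CPM and EEF1AKMT3 (32.3%) at 2.55 CPM.

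**Figure D1:**
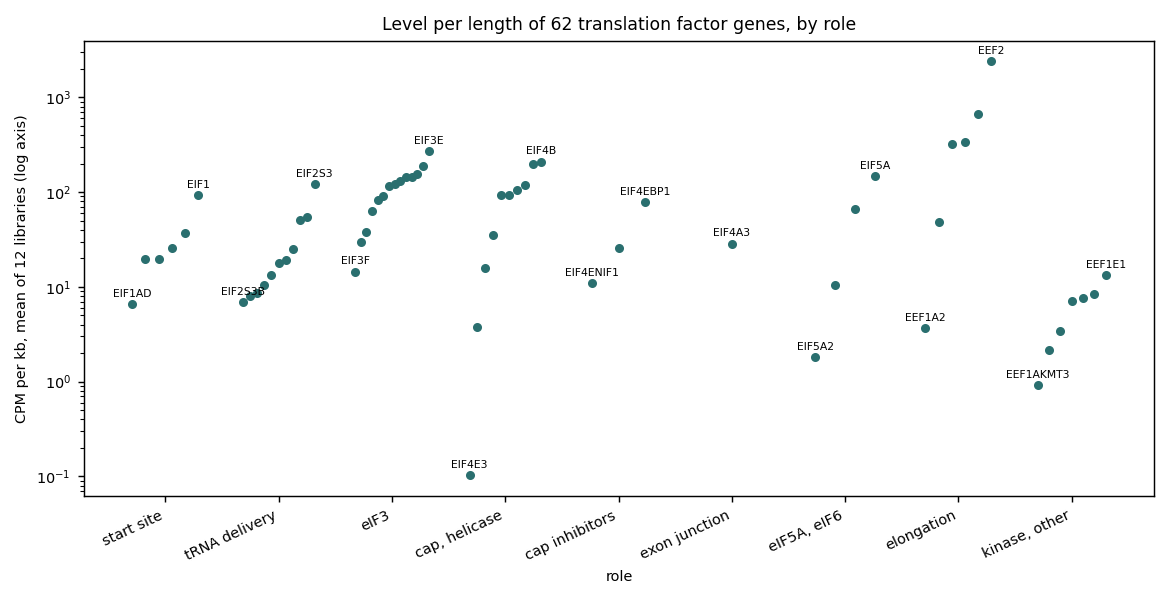
Level per length of the 62 tested genes by role, as CPM per kb of the longest transcript on a log axis. Each point is the mean of 12 libraries, and the lowest and highest gene of each role is named; EEF2 at 2393 is the highest when each gene's own row is counted, and EEF1A1 would pass it at 3443 with its pseudogene rows added.

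After PFBA no translation factor gene passed the test. None of the 62 had an adjusted p under 0.05 (edgeR quasi-likelihood test with Benjamini-Hochberg adjustment over all genes), where 0.00604% of all genes did, and limma-voom and DESeq2 also called 0 of them. Without adjustment 6 genes (9.68%) had a p under 0.05, against 9.86% of all genes, and all 6 were fitted lower. Lower values at that p made up 5.1% of all genes and higher ones 4.75%. The 6 were EIF6, EEF1B2, EIF2B5, EIF3K, EIF4A2 and EIF1AX. Of the 62 genes, 44 (71%) were fitted lower, against 50.9% of all genes, and their median log2 fold change was -0.037 beside -0.0026. For 5 of the 6, all but EIF4A2, every PFBA library lay below every control library, 8.06% of the 62 against 2.8% of all genes. No gene of the 62 had every PFBA library above every control, where 3.17% of all genes did and 5.96% were separated in either direction. After removal of the GC and length trends described further on, 40 of the 62 (64.5%) were fitted lower, against 52.6% of all genes.

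EIF6, which keeps the ribosomal subunits apart, gave the smallest p. It measured 87.7, 87.6, 90.8 and 93.6 CPM in control a to d and 74.3, 82.2, 81.9 and 82.1 in PFBA a to d (log2 fold change -0.17, SE 0.046, 95% interval -0.27 to -0.068, adjusted p = 0.304). PFBA a was the lowest and the groups did not overlap. EEF1B2, the exchange factor of eEF1A, measured 378, 375, 375 and 462 CPM in the controls and 329.7, 306, 341 and 371 with PFBA (log2 fold change -0.24, SE 0.072, 95% interval -0.39 to -0.084, adjusted p = 0.336). Control d stood above the other controls, and PFBA d came close to the lowest control. The exchange factor subunit EIF2B5 was at 38.2 ± 2.41 CPM in controls and 33.6 ± 1.04 with PFBA (SD, n = 4, log2 fold change -0.19, edgeR adjusted p = 0.344), although its row overlaps EIF4G1 and other genes, and the eIF3 subunit EIF3K at 124 ± 1.92 and 113 ± 8.01 (log2 fold change -0.14, edgeR adjusted p = 0.391). The most abundant genes gave intervals close to 0, of -0.20 to 0.023 for EEF2 and -0.20 to 0.064 for EEF1A1 on the log2 scale. EIF2S1 (-0.13 to 0.039), EIF4E (-0.25 to 0.079), EIF4G1 (-0.13 to 0.36), EIF4EBP1 (-0.16 to 0.052), EIF5A (-0.12 to 0.087) EEF2K (-0.10 to 0.082), EEF1E1 (-0.32 to 0.024) and EIF4A3 (-0.11 to 0.060) also had intervals that include 0. The half-width of the 95% interval had a median of 0.14 over the 62 genes.

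After PFHxA 15 genes changed, 13 lower and 2 higher. The 13 that fell were EIF1AX and EIF5B among the start site factors, EIF2S1 and EIF2S2 of eIF2, EIF3A, EIF3E, EIF3H and EIF3M of eIF3, the helicase EIF4A2 and the cap-binding EIF4E, the elongation genes EEF1A1 and EEF1B2, and EEF1E1 of the aminoacyl-tRNA synthetase complex. EIF4ENIF1 and EIF3C rose. The 15 make up 24.2% of the 62, where 14.9% of all genes were called. Here and elsewhere, the shares of all genes were not matched to these genes for level or for spread within groups. Lower calls made up 21% against 8.82% of all genes, and higher calls 3.23% against 6.08%. The median log2 fold change was -0.028 beside -0.0039 over all genes, with 35 of the 62 were fitted lower and 27 higher. In bulk RNA fewer cells of a kind and less RNA per cell cannot be told apart. Both exposed groups were set against the same 4 control libraries.

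**Figure D2:**
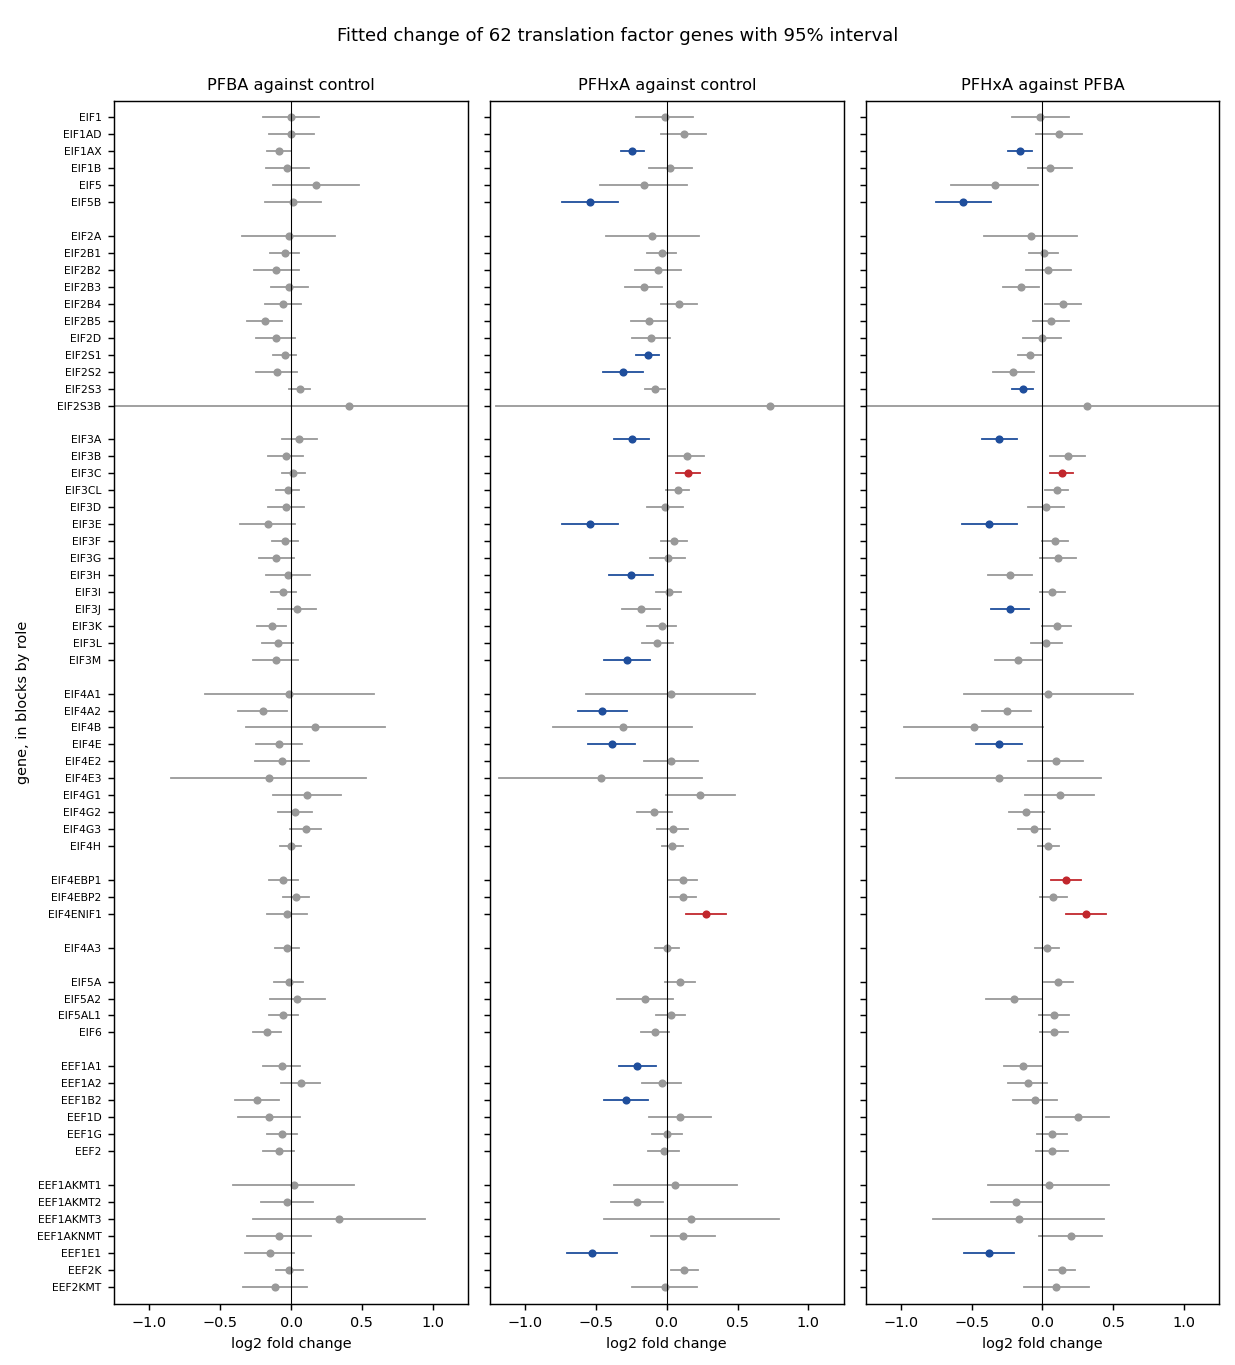
Fitted log2 fold change of the 62 tested genes with 95% intervals, in blocks by role, for the 3 comparisons (12 libraries, 4 per group). Blue marks genes called lower and red genes called higher at an adjusted p under 0.05; none is called for PFBA against control, 15 for PFHxA against control and 11 for PFHxA against PFBA, and the interval of EIF2S3B runs past the axis.

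Among the start site factors EIF5B and EIF1AX fell. EIF5B (ENSG00000158417, chr2:99337353-99401326, plus strand), the subunit-joining GTPase, measured 179.7, 170.3, 170.2 and 148 CPM in control a to d, 179, 164, 171 and 161 in PFBA a to d and 140.1, 103, 108 and 107 in PFHxA a to d. The 4 PFHxA libraries lay below all others, with PFHxA a nearest to the lowest control, control d (log2 fold change -0.54, SE 0.091, 95% interval -0.74 to -0.35, adjusted p = 0.00275). TXNDC9, on the opposite strand and overlapping EIF5B, was also lower (log2 fold change -0.46, edgeR adjusted p = 0.00187), and whether the counting used strand is not stated. EIF1AX (ENSG00000173674, chrX:20124518-20141844, minus strand), the scanning factor eIF1A, measured 94.7, 91.4, 91.0 and 94.1 CPM in the controls, 89.6, 86.9, 88.0 and 85.8 with PFBA and 74.2, 79.5, 81.4 and 78.6 with PFHxA. The 3 groups did not overlap, with PFBA between the other 2 (log2 fold change -0.24, SE 0.039, 95% interval -0.33 to -0.16, adjusted p = 0.00206). The other start site genes EIF1, EIF1B, EIF1AD and EIF5 were not called, with log2 fold changes from -0.16 to 0.12.

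In eIF2, which brings the initiator tRNA, the beta and alpha subunit genes fell, and the other 9 tested genes of this role were not called. EIF2S2 (ENSG00000125977, chr20:34088298-34112332, minus strand), the beta subunit, measured 164, 153, 154 and 172 CPM in the controls, 150.1, 137, 150.0 and 162 with PFBA and 145, 126, 119 and 129 with PFHxA. PFHxA a, the highest of its group, stayed under the lowest control (log2 fold change -0.31, SE 0.066, 95% interval -0.45 to -0.16, adjusted p = 0.00834). EIF2S1, the alpha subunit that the stress kinases phosphorylate, was at 116 ± 2.53 CPM in controls and 105 ± 3.75 with PFHxA (SD, n = 4, log2 fold change -0.14, SE 0.038, 95% interval -0.22 to -0.053, adjusted p = 0.0317). ATP6V1D, which overlaps EIF2S1 on the opposite strand, was lower too (-0.50, edgeR adjusted p = 0.0346). The EIF2S1 call was lost without control b or c or PFHxA a, b or c, with log2 fold changes from -0.11 to -0.14 in those fits and adjusted p up to 0.12. It was also lost without a filter on low counts (adjusted p 0.099) and with only the 8 libraries compared (0.065). The gamma subunit gene EIF2S3 had a log2 fold change of -0.081 (edgeR adjusted p = 0.124), with no overlap between the groups, and none of the 5 eIF2B genes was called. EIF2B3 was the nearest of these to the threshold (-0.16, edgeR adjusted p = 0.0857).

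The 14 tested eIF3 genes moved in both directions, 4 lower, 1 higher and 9 not called. EIF3E measured 592, 577, 589 and 761 CPM in the controls, 575, 501, 559 and 611 with PFBA and 462, 422, 398 and 448 with PFHxA. Control d was far above the other controls, and all PFHxA libraries lay below all others (log2 fold change -0.54, SE 0.090, 95% interval -0.74 to -0.35, adjusted p = 0.00271). Without control d the log2 fold change was -0.44, still called. EIF3A (ENSG00000107581, chr10:119033670-119080823, minus strand), the largest subunit, measured 1030.1, 1013, 993 and 957 CPM in the controls, 1045, 1056, 1039 and 1019 with PFBA and 964, 789.8, 804 and 807 with PFHxA. PFHxA a lay within the control range, while the other 3 lay below every control (log2 fold change -0.25, SE 0.057, 95% interval -0.37 to -0.12, adjusted p = 0.0119).

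EIF3M fell from 209 ± 24.0 to 172 ± 11.4 CPM (SD, n = 4, log2 fold change -0.28, edgeR adjusted p = 0.0242) and EIF3H from 485 ± 54.1 to 407 ± 16.6 (-0.25, edgeR adjusted p = 0.0326). Control d was the highest control for both. The EIF3M call was lost without PFHxA a, b or c (adjusted p up to 0.076), and the EIF3H call without control c or d or PFHxA a, b or c (adjusted p up to 0.095), with -0.17 for EIF3H without control d. The EIF3H call was also lost with only the 8 libraries compared (adjusted p 0.0502). EIF3C rose from 548 ± 21.5 to 609 ± 13.0 CPM (log2 fold change 0.15, SE 0.039, 95% interval 0.069 to 0.24, adjusted p = 0.0192), and all 4 PFHxA libraries lay above all controls. Its call was lost without control a, PFHxA b or PFHxA d, each with an adjusted p up to 0.054. EIF3CL, a near-identical copy of EIF3C, had a log2 fold change of 0.077 (edgeR adjusted p = 0.199), and the reads of the 2 rows may not be separable. With both rows summed, an alternative chosen after seeing the data, the log2 fold change was 0.12 (edgeR adjusted p = 0.0445).

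Of the 10 tested cap-binding and helicase genes, EIF4A2 and EIF4E fell and none rose. EIF4A2 (ENSG00000156976, chr3:186783205-186789900, plus strand), one of the paralogs of the eIF4A helicase, measured 592, 567, 489 and 646 CPM in the controls, 494, 506, 509 and 487 with PFBA and 461, 444, 389.7 and 380.0 with PFHxA. The controls were the most spread, and PFHxA c and d were the lowest libraries (log2 fold change -0.45, SE 0.079, 95% interval -0.63 to -0.28, adjusted p = 0.00314). RFC4, overlapping on the opposite strand, was also lower (-0.29, edgeR adjusted p = 0.0339). EIF4E (ENSG00000151247, chr4:98871684-98930637, minus strand) measured 45.6, 46.9, 47.7 and 51.3 CPM in the controls, 45.1, 48.7, 43.4 and 43.5 with PFBA and 37.6, 30.6, 37.4 and 40.2 with PFHxA. PFHxA b was the lowest and no PFHxA library reached another group (log2 fold change -0.39, SE 0.076, 95% interval -0.55 to -0.23, adjusted p = 0.00522). Its pseudogene EIF4EP2 held nearly as many counts, 40.5 CPM on average, and was lower as well (log2 fold change -0.34, edgeR adjusted p = 0.0135). The scaffold EIF4G1 was not called (log2 fold change 0.24, SE 0.111, 95% interval -0.0074 to 0.48, adjusted p = 0.19).

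**Figure D3:**
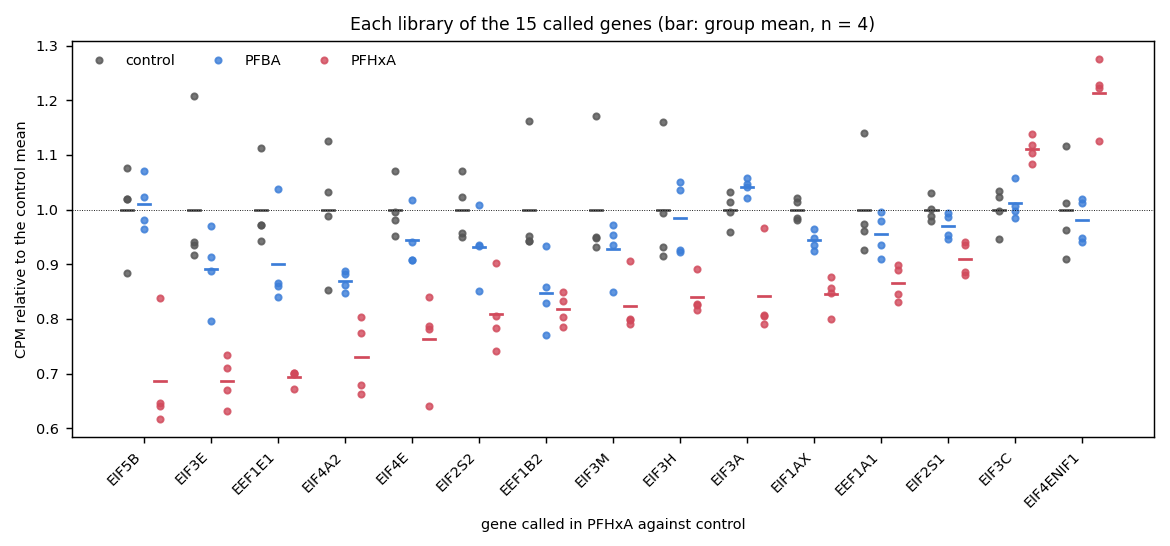
CPM of the 15 genes called in PFHxA against control, each library divided by the mean of the 4 controls (points, with a bar at each group's mean). The PFHxA points of the 13 lower genes lie below the controls except for EIF3A, where PFHxA a is within the control range; control d is the highest control for 9 of the 13, all but EIF1AX, EIF2S1, EIF3A and EIF5B.

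Of the 3 tested genes for proteins that hold back or carry eIF4E, EIF4ENIF1 rose. EIF4ENIF1 (ENSG00000184708, chr22:31436977-31496108, minus strand), the eIF4E transporter that takes eIF4E into the nucleus, measured 42.1, 34.3, 36.3 and 38.2 CPM in the controls, 35.5, 38.5, 38.2 and 35.8 with PFBA and 46.3, 42.5, 46.1 and 48.2 with PFHxA. The lowest PFHxA library, b, was just above the highest control, a (log2 fold change 0.28, SE 0.065, 95% interval 0.14 to 0.42, adjusted p = 0.0131). DRG1, which overlaps it on the opposite strand, was lower (-0.14, edgeR adjusted p = 0.0484). The inhibitors EIF4EBP1 (0.11, edgeR adjusted p = 0.148) and EIF4EBP2 (0.11, edgeR adjusted p = 0.1) were not called. Neither were EIF5A (-0.0098 to 0.20 as the 95% interval), EIF6 (-0.18 to 0.014) and the exon junction helicase EIF4A3 (-0.082 to 0.088).

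Of the 6 tested elongation factor genes, EEF1A1 and EEF1B2 fell and the other 4, EEF2 among them, were not called. EEF1B2 went from 397 ± 43.0 CPM in controls to 325 ± 11.2 with PFHxA (SD, n = 4, log2 fold change -0.29, SE 0.072, 95% interval -0.44 to -0.14, adjusted p = 0.017), with control d the highest. Its call was lost without PFHxA c (adjusted p 0.052). EEF1A1 went from 3137 ± 299 to 2717 ± 104 CPM (log2 fold change -0.21, SE 0.061, 95% interval -0.34 to -0.076, adjusted p = 0.037), and its call was lost without control b, control d or any one of the PFHxA libraries (adjusted p up to 0.096). Without control d its log2 fold change was -0.14, and with only the 8 libraries compared the call was lost too (adjusted p 0.074). EEF2 had a log2 fold change of -0.022 with a 95% interval of -0.13 to 0.089. EEF1E1 (ENSG00000124802, chr6:8073360-8102578, minus strand), a scaffold protein of the synthetase complex, had the smallest p of all 62. It measured 15.7, 16.2, 16.2 and 18.5 CPM in the controls, 14.3, 14.4, 14.0 and 17.3 with PFBA and 11.6, 11.7, 11.2 and 11.7 with PFHxA (log2 fold change -0.53, SE 0.082, 95% interval -0.70 to -0.35, adjusted p = 0.00199). Its PFHxA libraries lay close together and below all others. The kinase gene EEF2K was higher in each PFHxA library than in any control, but missed the threshold (log2 fold change 0.13, SE 0.043, 95% interval 0.032 to 0.22, adjusted p = 0.0686).

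Counted by separation of libraries, 16 of the 62 genes (25.8%) had all PFHxA libraries below all controls, against 11.2% of all genes, and 3 (4.84%) had all above, against 9.49%. The share of all counts that fell on the 65 genes was 2.38% ± 0.105 in controls, 2.31% ± 0.0564 with PFBA and 2.22% ± 0.0477 with PFHxA (SD, n = 4). By start sequence, 4 of the 9 lower genes with a matched start had a pyrimidine start (EEF1A1, EEF1B2, EIF3M and EIF4A2), as did 9 of the 37 not called, EEF2 and EIF4B among them.

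The lower calls went with the base composition of the transcripts. The 13 genes that fell had a median GC content of 39.0% in the longest transcript, the 47 not called 48.8%. Of the 13 genes under 40% GC, 8 fell (61.5%), where 31.8% of all tested genes under 40% fell. Between 40% and 50% GC 5 of 29 fell (17.2%, against 9.34% of all genes), and from 50% upward 0 of 20 (against 0.725%). For each library, the deviation of log2 CPM from the mean of the 12 libraries was fitted over GC content, with transcript length as a second term. Across all genes its slope per 10 percentage points of GC was 0.071 to 0.10 in the PFHxA libraries. It was -0.066 to -0.013 in the controls and -0.065 to 0.0042 with PFBA. These slopes are relative to the mean library, and the slope and the PFHxA group moved together. Once the GC and length trends of the libraries were taken out, 4 of the 62 genes were called (6.45%, against 2.62% of all genes), all 4 lower, where 1.69% of all genes were called lower and 0.924% higher. In that fit 31 of the 62 (50%) were fitted lower, against 49.7% of all genes. The 4 were EIF5B (-0.41 on the log2 scale, edgeR adjusted p = 0.0219), EIF3A (-0.23, 0.0321), EIF3E (-0.28, 0.0346) and EIF2S2 (-0.25, 0.0449).

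The other 11 calls were lost in that fit. EEF1B2 (-0.23, edgeR adjusted p = 0.0512), EIF4A2 (-0.30, 0.0539), EIF4E (-0.31, 0.0609) and EEF1A1 (-0.22, 0.0888) kept log2 fold changes under -0.2. So did EEF1E1 (-0.22, edgeR adjusted p = 0.113), although its fitted value was -0.53 before. EIF1AX went to -0.016, EIF3M to -0.11, EIF3H to -0.099 and EIF2S1 to 0.024, a change of direction for the last. EIF4ENIF1 (0.22, edgeR adjusted p = 0.104) and EIF3C (0.12, 0.0978) stayed fitted higher. Since all 4 PFHxA libraries had the higher slope, the exposure and the slope cannot be told apart in this design.

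**Figure D4:**
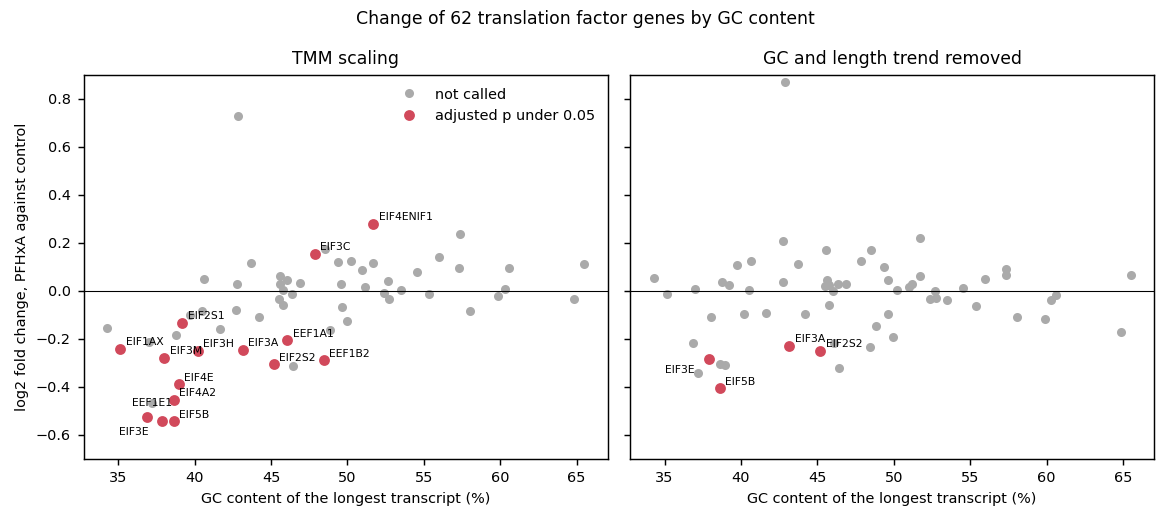
Log2 fold change of the 62 tested genes in PFHxA against control over the GC content of the longest transcript, as fitted (left) and with each library's GC and length trend removed (right). Red points have an adjusted p under 0.05; on the left 8 of the 13 genes under 40% GC are red and all are lower, and on the right 4 genes are red.

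Some of these genes have copies elsewhere in the genome whose rows also held counts. Whether such counts came from the gene or from the copy was not tested. The row of the pseudogene EEF1A1P5 (chr9:133019486-133020874) held 11048 CPM on average, against 2950 for EEF1A1, and 39 pseudogene rows together held 80.7% of the counts that fell on EEF1A1 or its copies. With these rows summed into EEF1A1, as chosen after seeing the data, the totals were 15914, 15907, 16005 and 17842 CPM in the controls, 14925, 15313, 15595 and 15359.8 with PFBA and 13844, 14668, 14105 and 14020.5 with PFHxA. The PFHxA totals lay below all others and control d above them (log2 fold change -0.21, edgeR adjusted p = 0.00851). Summed rows kept EEF1B2 (-0.29), EIF1AX (-0.24), EIF2S2 (-0.30) and EIF4E (-0.36) called in PFHxA against control, and the number of called genes stayed at 15.

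In other genes single libraries differed widely within a group. EIF2S3B, a near-copy of EIF2S3 on another chromosome, measured 1.68, 19.9, 3.5 and 19.5 CPM in the controls, 17.7, 0.593, 19.8 and 20.5 with PFBA and 18.2, 18.9, 18.6 and 17.7 with PFHxA. Control a, control c and PFBA b were at 3.5 CPM or less and the other 9 libraries at 17.7 or more, so that its coefficient of variation within groups, 53.7%, was the largest of the 62. EIF4A1, a paralog of EIF4A2, ranged from 150 to 295 CPM. The overlapping same-strand row SENP3-EIF4A1 took 0 to 65.8 CPM, and with it and the row AC016876.3 added the coefficient went from 27.5% to 15.6%. EIF4B, which stimulates the helicase, measured 646, 976, 957 and 988 CPM in the controls, 987, 976, 1016 and 1040.5 with PFBA and 916, 907, 456 and 595 with PFHxA. Control a, PFHxA c and PFHxA d were low, and EIF4B was not called (log2 fold change -0.31, SE 0.220, 95% interval -0.80 to 0.18, adjusted p = 0.404). The cause of these differences was not tested.

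**Figure D5:**
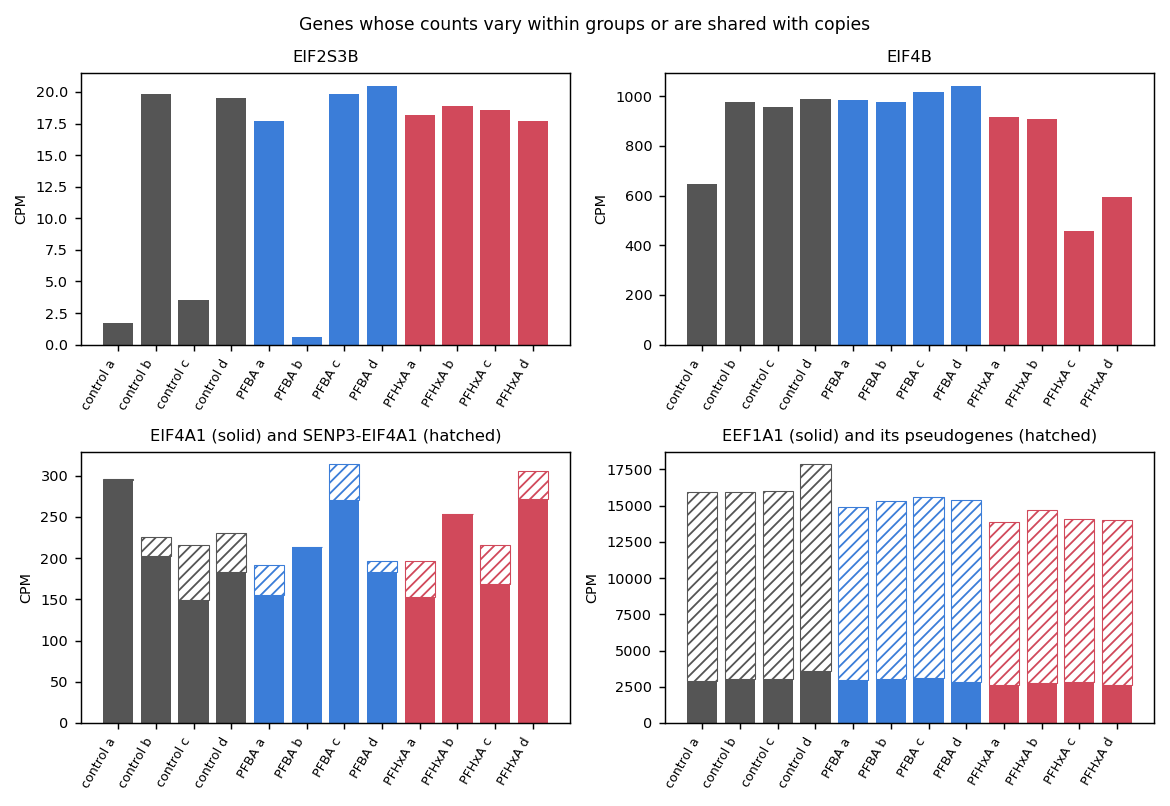
CPM per library of EIF2S3B, EIF4B, EIF4A1 with the overlapping SENP3-EIF4A1 row stacked on it, and EEF1A1 with its 39 pseudogene rows stacked on it (bars from 0; control grey, PFBA blue, PFHxA red). EIF2S3B is near 0 in control a, control c and PFBA b, EIF4B is low in control a, PFHxA c and PFHxA d, and most of the EEF1A1 bar is pseudogene counts.

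Between the acids, at the same dose and time, 11 genes differed, 17.7% of the 62 against 10.9% of all genes. In PFHxA libraries 8 were lower than in PFBA libraries (12.9%, against 7.07%) and 3 higher (4.84%, against 3.84%). EIF5B had the smallest p (log2 fold change -0.56, SE 0.091, 95% interval -0.76 to -0.36, adjusted p = 0.00324), followed in p by EIF3A (-0.31, edgeR adjusted p = 0.0052), where all PFHxA libraries lay below all PFBA libraries. EIF4ENIF1 was higher (0.31, edgeR adjusted p = 0.0101) and EEF1E1 lower (-0.38, edgeR adjusted p = 0.0113). EIF3E (-0.38), EIF4E (-0.31) and EIF1AX (-0.16) were lower with adjusted p values of 0.0188, 0.0207 and 0.0195 (edgeR).

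The remaining 4 differences were of EIF2S3, EIF3J, EIF3C and EIF4EBP1. EIF2S3 measured 349, 355, 343 and 341 CPM in the controls, 360.0, 352, 369.5 and 365 with PFBA and 323, 323, 328 and 339 with PFHxA. The PFHxA libraries were below all PFBA libraries (log2 fold change -0.14, SE 0.033, 95% interval -0.21 to -0.070, adjusted p = 0.0162), and the call was lost when EIF2S3B was summed with it (adjusted p 0.0753) or without PFBA c, PFHxA b or PFHxA c (adjusted p up to 0.063). EIF3J, the loosely bound eIF3 subunit, was at 80.5 ± 7.7 CPM with PFBA and 68.7 ± 2.86 with PFHxA (SD, n = 4, log2 fold change -0.23, SE 0.062, 95% interval -0.36 to -0.094, adjusted p = 0.0328). EIF4EBP1, the mTOR-controlled inhibitor of eIF4E, was at 76.0 ± 3.61 and 85.2 ± 3.05 CPM (log2 fold change 0.17, SE 0.049, 95% interval 0.060 to 0.27, adjusted p = 0.045), and EIF3C at 554 ± 17.6 and 609 ± 13.0 (0.13, edgeR adjusted p = 0.0403). With EIF3CL summed into it the EIF3C call was lost (0.12, edgeR adjusted p = 0.0539). The EIF3J call was lost without PFBA a or c or PFHxA b or c, the EIF4EBP1 call without control b, PFBA a, c or d or PFHxA a, b or c, and the EIF3C call without any one of 8 libraries (control c, PFBA a, c or d and every PFHxA library). The EIF3E call was lost without PFBA a or d or PFHxA b or c and the EIF1AX call without PFBA a or c or PFHxA b, the count of 11 falling to 6 without PFBA a, 7 without PFBA c, 5 without PFHxA b and 6 without PFHxA c.

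All PFHxA libraries lay below all PFBA libraries for 15 of the 62 genes (24.2%, against 10.8%) and above them for 6 (9.68%, against 9.24%). After removal of the GC and length trends 2 genes differed between the acids (3.23%, against 0.882% of all genes). EIF5B was lower, where 0.658% of all genes were called lower (-0.38, edgeR adjusted p = 0.0466), and EIF3F, which was not called otherwise (0.091, adjusted p = 0.191), was higher (0.22, 0.0466). The other 10 calls were lost in that fit. EIF3A was at -0.23 (edgeR adjusted p = 0.0531), EIF4ENIF1 at 0.24 (0.114) and EIF3C at 0.12 (0.162). EIF1AX changed direction, to 0.081. EIF3E went to -0.15, EIF4E to -0.15, EEF1E1 to -0.13, EIF2S3 to -0.031, EIF3J to -0.028 and EIF4EBP1 to 0.060 on the log2 scale. Without a filter on low counts the calls of EIF3E, EIF1AX, EIF3C and EIF4EBP1 were lost (adjusted p 0.051 to 0.083). With only the 8 libraries compared those of EIF3J (0.0505) and EIF4EBP1 (0.054) were lost, and with the column letter as a block that of EIF4EBP1 (0.068). No difference between the acids was called for EEF2, whose 95% interval was -0.046 to 0.18, EEF1A1 (-0.27 to -0.0091), EEF1B2 (-0.21 to 0.10), EIF2S1 (-0.17 to -0.0087), EIF4G1 (-0.12 to 0.37), EIF5A (0.0073 to 0.22), EEF2K (0.043 to 0.23), EEF1D (0.028 to 0.47) or EIF4A3 (-0.056 to 0.11). EIF4A2, EIF2S2, EIF3H and EIF3M were called against control but not between the acids, with intervals, which are not adjusted for the number of genes, of -0.42 to -0.082, -0.35 to -0.063, -0.38 to -0.074 and -0.33 to -0.011.

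Among 41 other genes of translation control, PFHxA changed 9 (22%, beside 14.9% of all genes). Of these 5 were higher (12.2%, against 6.08% of all genes) and 4 lower (9.76%, against 8.82%). The higher ones were the mTOR complex genes MTOR and RPTOR, LARP1, which binds oligopyrimidine mRNAs, EEFSEC, the selenocysteine elongation factor, and EIF2AK1, the haem-regulated eIF2 kinase. MTOR measured 149, 146, 154 and 128 CPM in control a to d and 179.8, 173, 174 and 171 in PFHxA a to d, with no overlap (log2 fold change 0.27, edgeR adjusted p = 0.00528). RPTOR had a log2 fold change of 0.32 (edgeR adjusted p = 0.00398), LARP1 of 0.22 (0.00642), EEFSEC of 0.23 (0.0188) and EIF2AK1 of 0.15 (0.0252). The lower ones were the scanning helicase DHX29, the ribosome recycling factor ABCE1, MCTS1 and the poly(A)-binding protein partner PAIP1. DHX29 measured 84.9, 82.4, 78.8 and 93.5 CPM in the controls and 68.1, 65.1, 63.6 and 63.4 with PFHxA (log2 fold change -0.38, edgeR adjusted p = 0.00161), and it was the only one of the 9 that stayed called after the trends were removed (-0.25, 0.0243). With the trends removed 1 of the 41 was called (2.44%, against 2.62% of all genes). MTOR went to 0.13 in that fit, RPTOR to 0.14, LARP1 to 0.10, EEFSEC to 0.15, EIF2AK1 to 0.12, ABCE1 to -0.096, MCTS1 to -0.13 and PAIP1 to -0.046. ABCE1 had a log2 fold change of -0.28 (edgeR adjusted p = 0.00455), MCTS1 of -0.31 (0.0272) and PAIP1 of -0.16 (0.0299). The EEFSEC call was lost without PFHxA b or d (adjusted p up to 0.058), EIF2AK1 without control b or PFHxA b, c or d (up to 0.077), MCTS1 without control d or PFHxA a, c or d (up to 0.081) and PAIP1 without control a or d or PFHxA b or c (up to 0.11). Without a filter the EEFSEC (0.063), EIF2AK1 (0.057) and PAIP1 (0.072) calls were lost, and with only the 8 libraries compared that of PAIP1 (0.072).

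Between the acids 8 of the 41 were called, 19.5% against 10.9% of all genes. Of these 5 were lower (12.2%, against 7.07%) and 3 higher (7.32%, against 3.84%). DHX29 (-0.37), ABCE1 (-0.26), PAIP1 (-0.15), the endoplasmic reticulum stress kinase EIF2AK3 (-0.24) and the eIF4A inhibitor PDCD4 (-0.25) were lower with PFHxA, and RPTOR (0.22), MTOR (0.19) and EEFSEC (0.20) higher, as log2 fold changes. The DHX29 and ABCE1 calls held without any one of the 12 libraries. The other 6 calls were each lost without PFBA a, without PFBA c and without PFHxA c, among others, with adjusted p up to 0.14. Without a filter and with only the 8 libraries compared, EEFSEC, PAIP1 and PDCD4 were lost (adjusted p 0.051 to 0.14). EEFSEC was also lost with the letter as a block (0.067), and PDCD4 with RLE scaling (0.0507) and limma-voom (0.052). The count of 8 became 2 without PFBA a or PFHxA c, 3 without PFBA c or PFHxA b, 4 without control b or PFHxA d and 5 without PFBA d. Once the trends were removed edgeR called none of the 41 between the acids, where 0.882% of all genes were called. With PFBA none of the 41 passed the test by edgeR, limma-voom or DESeq2, where edgeR called 0.00604% of all genes. Without adjustment 4 of the 41 (9.76%) had an edgeR p under 0.05, against 9.86% of all genes. The smallest p values were those of DPH1, an enzyme of the diphthamide modification of eEF2 (-0.53, edgeR adjusted p = 0.411), and TPT1 (-0.15, 0.463). DPH1 was split within groups, with 21.4 to 26.1 CPM in PFBA a, b and d and 39.9 in PFBA c, within the control range of 39.3 to 41.5. PFHxA d was at 27.2 CPM and PFHxA a, b and c at 40.7 to 42.6. ATF4, the transcription factor whose translation rises when eIF2 is phosphorylated, was at 577 ± 24.0 CPM in controls, 569 ± 20.2 with PFBA and 566 ± 17.9 with PFHxA (SD, n = 4), and its 95% interval for PFHxA against control was -0.12 to 0.060.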

How the data were processed

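RNA was sequenced from 12 libraries made from total RNA, 4 per group. Raw counts per Ensembl gene were deposited by the authors. HISAT2 2.0.4 and the build GRCh38 (hg38) are named in the submitters' processing notes. For the counting program and the annotation release, nothing was given in the sources used here, nor for strand. A further 12 columns of normalized values were not used, so that levels between genes are CPM per kb of the longest transcript and not the deposited normalized values planned at first. Column prefixes were read as PFBA, control and PFHxA, and the column letters could not be tied to replicate numbers.

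Counts were fitted in edgeR 4.0.16 (R 4.3.3): filterByExpr (minimum count 10, total 15), TMM scaling, robust quasi-likelihood F tests (two-sided) on all 12 libraries with group as the only term, Benjamini-Hochberg adjustment over 16554 genes and a threshold of 0.05. SE and 95% intervals come from the same fit. GC content and length were those of the longest GENCODE 29 transcript, known for all 62 tested genes, and each library's trend was removed with splines of 5 degrees of freedom. Copies are the rows named as the gene followed by P and a number and described as pseudogenes, with EIF3CL for EIF3C, EIF5AL1 for EIF5A and EIF2S3B for EIF2S3. Start sequences were RefSeq's, matched by symbol. Only the main edgeR fit was tested on simulated counts, which held no GC or length trend, and the alternatives were not tested in this way. Figures used Python 3.11.15, matplotlib 3.10.9, numpy 2.4.6 and pandas 2.3.3.

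The genes, lists and tests were chosen with earlier results of these data known. Named were all called genes, the gene with the smallest p in each role and comparison, 8 fixed genes (EEF1A1, EEF2, EIF2S1, EIF4E, EIF4EBP1, EIF4G1, EIF5A and EEF2K) and the called genes of a list of 42 further translation genes, of which 41 were found apart from the 65. Values in every library are given for up to 8 called genes per comparison in order of p, and for EIF6, EEF1B2, EIF2S3B, EIF4B, MTOR and DHX29, chosen after their values were seen, as were the other genes named outside this rule. The alternatives tried were scaling by RLE or upper quartile, all genes unfiltered, a filter of at least 1 CPM in 4 libraries with 50 counts on average, only the 8 libraries compared, limma-voom (limma 3.58.1), DESeq2 1.42.0, the removed trend, the column letter as a replicate block and leaving out each library.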

Additional observations from a re-analysis of the deposited data

Results flagged for a closer look

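Each of the 62 tested genes was examined in each of the 3 groups, as 186 sets of 4 values. In 22 of these sets 1 library stood apart from the other 3 by a gap that chance gives in about 1 of 20 sets of normally distributed values. The sets reuse the same 12 libraries and are not independent. The library that stood apart was control d in 6 of the 22 sets, PFBA b in 4, PFHxA a in 3 and any other in at most 2. Values are CPM.

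Control d was high for EIF3E (761), EEF1B2 (462), EIF1B (43.5) and EIF3M (245), and low for EIF4G1 (413) and EIF4G3 (189). Control a was low for EIF4B (646). Among PFBA libraries, d was high for EEF1E1 (17.3), and b was high for EIF2A (137), EIF3CL (403) and EIF4E2 (64.5) and low for EIF2S3B (0.593). PFBA a was low for EIF6 (74.3) and EEF1AKMT1 (1.59), and PFBA c for EIF1AD (16.8). Among PFHxA libraries, a was high for EIF3A (964) and EIF5B (140.1) and low for EIF4G2 (667), b was low for EIF2A (78.8), c was low for EEF1E1 (11.2), and d was high for EIF3H (432) and EIF3M (189).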

How the results depend on the processing

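With the GC and length trends removed, 4 of the 62 genes were called in PFHxA against control, 2 between the acids and 0 for PFBA, and of the 41 other translation genes 1, 0 and 0. Without a filter the counts between the acids were 7 and 5. Leaving out 1 library at a time gave 10 to 16 genes in PFHxA against control (lowest without PFHxA b or c), 5 to 16 between the acids (lowest without PFHxA b, highest without control d) and 0 for PFBA, and 6 to 10, 2 to 9 and 0 of the 41 (lowest between the acids without PFBA a or PFHxA c). With the column letter as a replicate block the 3 counts were 15, 13 and 0. Same-letter libraries did not deviate together (correlations -0.090 to 0.062, 0 of 12 over 0.1), and in 3 of these 12 pairs the own letter gave the best correlation. The calls by limma-voom numbered 15, 11 and 0, those by DESeq2 15, 16 and 0, and summing copies, chosen after seeing the data, gave 15, 9 and 0.

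Of 1650 values of single genes under the alternatives, 1455 stayed on their side, 171 lost and 6 gained a call, and 18 changed sign. With the trend removed these were EIF4EBP1 (0.0052) and EIF5A (0.030) for PFBA, EIF2S1 for PFHxA (0.024), and EIF1AX (0.081), EIF2S1 (0.081) and EEF2 (-0.039) between the acids. Upper-quartile scaling turned EEF2K for PFBA (0.00043). Leaving out 1 library turned, for PFBA, EEF2K (range -0.037 to 0.015, above 0 without control b and without PFBA b at 0.00025), EEF1A1 (-0.10 to 0.0021, above 0 without control d) and EIF5A (-0.051 to 0.014, above 0 without control c, control d and PFBA d), and for PFHxA EIF4A3 (-0.0096 to 0.020, below 0 without control a, control b and PFHxA a) and EEF2 (-0.051 to 0.0039, above 0 without control d and PFHxA c). The cause was not tested. With 4 libraries per group, the unadjusted 95% intervals for PFBA had a median half-width of 0.14 on the log2 scale, and fitted changes as large as that of EEF1B2 (-0.24) were not called.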
